A study of Mus musculus with 6 samples.

Results

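AMPA and kainate receptors are the fast glutamate-gated channels of excitatory synapses, and their subunits are encoded by 9 genes, 4 for the AMPA family (Gria1 to Gria4) and 5 for the kainate family (Grik1 to Grik5). These genes were taken by symbol from the 47086 gene loci of the deposited table, and each symbol had 1 locus. The 6 libraries held RNA of primary hippocampal neurons cultured for 14 days in vitro, 3 from wild type (WT) and 3 from *Fmr1* knockout (KO) mice, and the labels give the C57BL/6 strain for both genotypes. No treatment is labelled, and the paper describes the cultures as made from newborn pups. The paper describes its mice in general as knockout males with WT littermates, bred from heterozygous mothers. For the cultures themselves, the sex and number of pups behind a library are not stated in the sources used here, and the knockout allele is not either. The paper says in general that its data came from several culture batches and litters. Its Methods give a pair of litters for biochemical work on primary neurons, and more for animal experiments. Neither statement names these libraries, so whether each came from a separate culture is not known. The p-values therefore measure the spread between these libraries, which may in part be technical.

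AMPA receptors carry most of the fast excitatory current, and their number at the synapse is changed in long-term potentiation and long-term depression. A receptor that holds the GluA2 subunit, the product of Gria2, passes little calcium, because adenosine deamination of the Gria2 transcript recodes a glutamine codon in the pore as arginine. Kainate receptors sit on both sides of the synapse. GluK1 to GluK3 (Grik1 to Grik3) form channels on their own, whereas GluK4 and GluK5 (Grik4 and Grik5) bind glutamate with high affinity and need a partner from the first group. FMRP, the protein lost in fragile X syndrome, is an RNA-binding protein that represses translation at synapses, and exaggerated removal of AMPA receptors after activation of metabotropic glutamate receptors is a known phenotype of its loss.

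The recoded codon, called the Q/R site, lies in a stretch that all 9 transcripts share, and it is shown here for 6 of them: Gria2, the AMPA transcript that is recoded, Gria1, the AMPA member that differs most from it here, Gria4, the one with another codon, Grik2 and Grik1, the kainate transcripts known to be recoded at the same site, and Grik5, the most abundant kainate transcript. Each line gives 60 coding bases of the principal transcript of GENCODE M21 on GRCm38, read 5′ to 3′ on the coding strand, with the Q/R codon in capitals.
Gria2: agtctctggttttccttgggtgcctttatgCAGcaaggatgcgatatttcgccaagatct
Gria1: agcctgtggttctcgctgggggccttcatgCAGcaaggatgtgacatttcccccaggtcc
Gria4: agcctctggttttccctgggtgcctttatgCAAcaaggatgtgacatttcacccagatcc
Grik2: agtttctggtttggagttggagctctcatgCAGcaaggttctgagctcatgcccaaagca
Grik1: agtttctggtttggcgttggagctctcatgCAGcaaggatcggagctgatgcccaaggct
Grik5: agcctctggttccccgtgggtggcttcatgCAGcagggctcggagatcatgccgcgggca

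The unedited codon was CAG in 8 of the 9 transcripts and CAA in Gria4. In Gria2 it is codon 607, at chr3:80706911-80706913 on the minus strand in exon 11 of 16, and in Gria1 it lies at chr11:57243094-57243096 on the plus strand in exon 11 of 16. In Gria4 it lies at chr9:4464137-4464139 on the minus strand in exon 12 of 17. The codon of Grik2, codon 621, is at chr10:49244329-49244331 on the minus strand in exon 12 of 16, and that of Grik1, also codon 621, is at chr16:87940542-87940544 on the minus strand in exon 12 of 17. In Grik5 it is at chr7:25022497-25022499 on the minus strand in exon 15 of 20. All of these are coding exons. Over the 60 bases, Gria2 differed from Gria3 at 5 positions, from Gria4 at 8 and from Gria1 at 13, and Grik1 differed from Grik2 at 6. Gria2 differed from the kainate genes at 17 to 22 positions. The kainate family was as diverged within itself, since Grik4 and Grik5 differed from Grik1 to Grik3 at 18 to 24 positions. Over whole transcripts the longest run of identical bases in any of the 36 pairs of members was 38 bases, between Grik3 and Grik5, and no pair shared a run of 50. FPKM (fragments mapped to a gene, scaled by transcript length and by the mapped fragments of the library) counts edited and unedited, and flip and flop, transcripts together, so the values below are for whole genes.

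The cultures expressed markers of neurons, astrocytes and the oligodendrocyte lineage. The summed FPKM of 6 pan-neuronal markers was 1237 to 1299.6 in WT and 1288 to 1390.5 in *Fmr1* KO, and that of 7 astrocyte markers was 1693 to 1999.9 in WT and 1757 to 1955 in *Fmr1* KO. The 7 microglial markers had a summed FPKM of 3.75 to 6.01 in WT and 0.895 to 2.38 in *Fmr1* KO. Of these, Aif1 and Tmem119 were listed at 0 in every library, but Aif1 has 4 loci in the table, and a listed 0 of such a symbol does not show that its transcript is absent. *Fmr1* itself had an FPKM of 19.0, 19.5 and 19.7 in WT and of 23.1, 21.8 and 18.5 in the libraries labelled *Fmr1* KO (log2 change 0.12, adjusted p = 0.536 by limma), so its level does not check the labels. That change was 0.051 without *Fmr1* KO replicate 1 and 0.21 without *Fmr1* KO replicate 3. Between 73.7 and 80.6% of a library's summed FPKM came from the noncoding RNA Bc1, and the absolute depth is unknown.

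All 9 subunit genes were expressed, and their levels spanned 20.1-fold. Gria2 was the highest, with a mean FPKM of 152 over the 6 libraries, followed by Grik5 at 101 and Gria1 at 99.1. Gria3 followed at 34.0, Gria4 at 20.2, Grik2 at 18.4, Grik4 at 14.3 and Grik3 at 12.8, and Grik1 was the lowest at 7.59. Gria2, Grik5 and Gria1 lay above 95.7% or more of the 13195 loci tested, and Grik1 lay above 41.0% of them. In the deposited table (GRCm38) Gria1 spans 57011571 to 57330244 on chromosome 11, Gria2 spans 80682904 to 80803204 on chromosome 3 and Gria4 spans 4417893 to 4796247 on chromosome 9. Grik2 lies at 49093681 to 49789255 on chromosome 10, Grik3 at 125490206 to 125714173 on chromosome 4, Grik4 at 42520412 to 42945154 on chromosome 9 and Grik5 at 25009849 to 25072369 on chromosome 7.

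**Figure D1:**
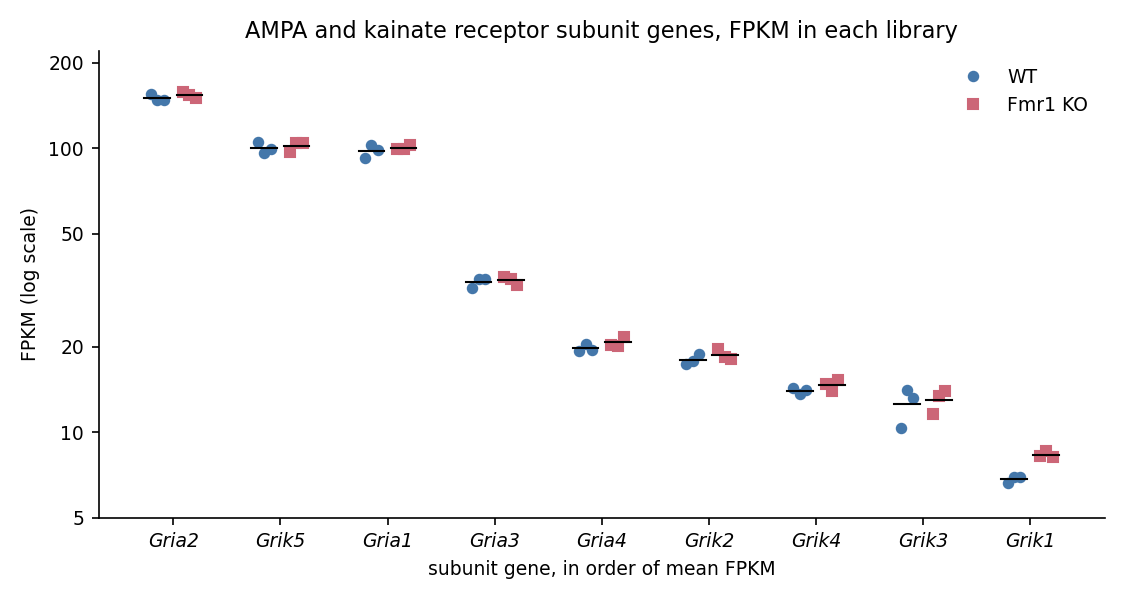
FPKM of the 9 subunit genes on a logarithmic axis, with 3 WT libraries as circles and 3 Fmr1 KO libraries as squares and a line at each group mean. The genes are ordered by their mean, from Gria2 at 152 to Grik1 at 7.59, and the 2 genotypes overlap for every gene but Grik1.

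Neighbours in this order were compared within each library. In 6 of the 8 neighbouring pairs the first gene was higher in 6 of 6 libraries, with an adjusted p of 0.0417 (two-sided exact sign permutation test of the log2 FPKM, Benjamini-Hochberg over 8 pairs; the smallest unadjusted p with 6 libraries is 0.0313). Gria2 was 1.51-fold above Grik5, and Gria1 was 2.91-fold above Gria3, the widest step. Gria4 was 1.10-fold above Grik2, a difference smaller than the range over libraries, since the 2 sets of values overlapped. Grik5 and Gria1 were not separated (ratio 1.02, higher in 4 of 6 libraries, adjusted p = 0.594 by the same exact test), nor were Grik4 and Grik3 (ratio 1.13, 5 of 6 libraries, adjusted p = 0.0714 by the same exact test). With 5 libraries the smallest sign p is 0.0625, so no pair can pass when a library is left out. The transcript lengths behind the FPKM are not stated, and an error in them would be the same in all 6 libraries. These p-values measure the spread between libraries and not such an error.

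None of the 9 genes differed between the genotypes at an adjusted p below 0.05, and 1, Grik1, did at an unadjusted p below 0.05. The test was limma on log2(FPKM + 0.1), a scale on which the change of weakly expressed genes is understated, with Benjamini-Hochberg adjustment over the 13195 loci whose mean FPKM reached 1 in WT or in *Fmr1* KO; all 9 members passed that minimum in both. Of all loci tested, 0.265% were called at an adjusted p below 0.05, 6.99% had an unadjusted p below 0.05 with *Fmr1* KO higher and 7.77% with it lower. The 3 *Fmr1* KO libraries lay above the 3 WT libraries in 1 of the 9 members and below them in 0, against 10.8% and 10.3% of all loci tested, so the members' count is near that of any gene.

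Gria1 encodes GluA1, the subunit that is phosphorylated and inserted during potentiation in the hippocampus. Its FPKM was 92.6, 102 and 98.4 in WT, against 99.4, 99.5 and 102 in *Fmr1* KO. The WT range enclosed the *Fmr1* KO range, and the log2 change was 0.038 (standard error 0.049, 95% interval -0.074 to 0.15, adjusted p = 0.770 by limma). Gria2 measured 156, 148 and 147 FPKM in WT, against 158, 154 and 150.3 in *Fmr1* KO. The ranges overlapped, and the 95% interval of the log2 change ran from -0.065 to 0.14.

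Gria3, whose product pairs mainly with GluA2, lies on chromosome X (41401118 to 41678601), 27.0 Mb from *Fmr1*. Its FPKM was 32.2, 34.5 and 34.7 in WT, against 35.1, 34.6 and 33.01 in *Fmr1* KO. The values were intermixed, and its log2 change of 0.019 was the smallest of the 9 (95% interval -0.10 to 0.14, adjusted p = 0.909 by limma). Gria4, whose product is prominent in interneurons and in early development, measured 19.3, 20.5 and 19.4 FPKM in WT, against 20.3, 20.1 and 21.7 in *Fmr1* KO. The ranges overlapped, with a log2 change of 0.067 (95% interval -0.059 to 0.19, adjusted p = 0.621 by limma).

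Grik1 (chromosome 16, 87895897 to 88290601) encodes GluK1, a kainate subunit known from hippocampal interneurons. Its FPKM was 6.64, 6.95 and 6.94 in WT, against 8.23, 8.60 and 8.18 in *Fmr1* KO. All *Fmr1* KO libraries lay above all WT libraries, and the means were 6.84 ± 0.178 and 8.34 ± 0.229 (SD, n = 3). The log2 change was 0.28 (standard error 0.062, 95% interval 0.14 to 0.42), which is larger than the spread between replicates, with an adjusted p of 0.104 in limma (0.00153 before adjustment). Permuting the 6 values exactly gave 0.1, the smallest p that 3 against 3 allows. The adjusted p lay between 0.0903 and 0.358 under all alternatives tried for this gene. The change was larger in size than that of 91.7% of all loci tested. The paper, which used Cuffdiff at a p below 0.05, lists Grik1 as higher among the differentially expressed genes of its pathways.

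Markers of cells that can express Grik1 were also examined. The summed FPKM of 5 inhibitory neuron markers was 162 to 166 in WT and 159.7 to 169.6 in *Fmr1* KO, so the groups overlapped, and that of 5 excitatory neuron markers was 996 to 1036 in WT and 1024 to 1098 in *Fmr1* KO. Within the inhibitory list, Dlx1 and Lhx6 were separated with *Fmr1* KO higher, as were 10.8% of all loci tested. Dlx1 was 6.78, 7.26 and 6.26 in WT, against 8.46, 8.97 and 9.03 in *Fmr1* KO (adjusted p = 0.0766 by limma). Lhx6 was 5.94, 6.70 and 7.11 in WT, against 8.29, 8.12 and 8.61 in *Fmr1* KO (adjusted p = 0.118 by limma). Gad1, Gad2 and Slc32a1 overlapped between the genotypes. Gad1 was 92.8, 90.9 and 88.2 in WT, against 90.3, 84.5 and 83.9 in *Fmr1* KO. The log2 changes of Gad2 and Slc32a1 were 0.11 and -0.080. For 7 oligodendrocyte lineage markers the sum was 346 to 402 in WT and 396 to 439 in *Fmr1* KO, with Pdgfra and Olig2 higher at an unadjusted p below 0.05 and none of the 7 called after adjustment. The part of these cell types in the Grik1 values was not tested. In bulk RNA, a change in the number of cells of a type cannot be told apart from a change in RNA per cell.

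**Figure D2:**
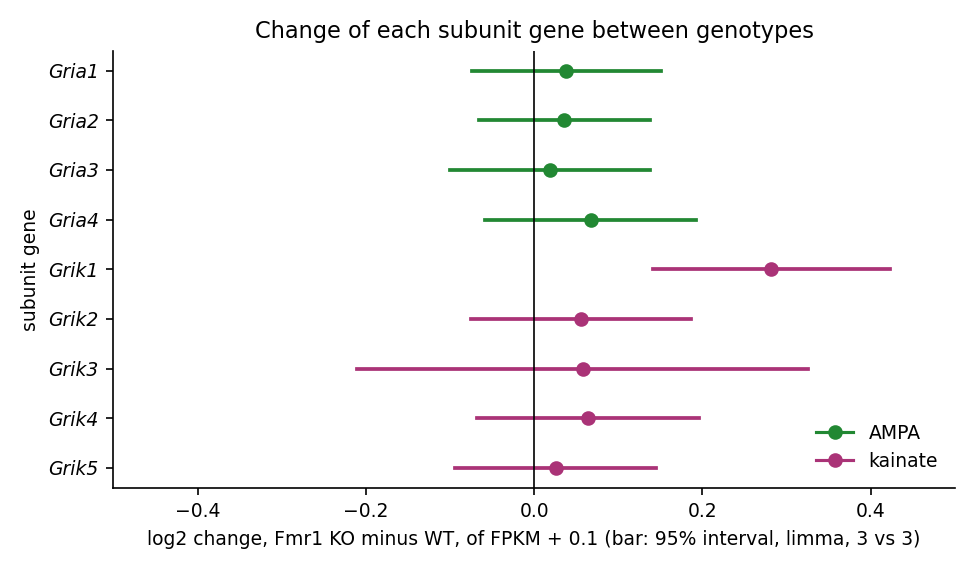
Log2 change (Fmr1 KO minus WT, on the log2(FPKM + 0.1) scale) of each subunit gene, with points at the limma estimate and bars for its 95% interval from 3 against 3 libraries. The interval of Grik1, 0.14 to 0.42, lies above 0 and those of the other 8 genes include 0.

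Grik2 encodes GluK2, a principal subunit of kainate receptors at mossy fibre synapses. Its FPKM was 17.4, 17.8 and 18.8 in WT, against 19.7, 18.3 and 18.2 in *Fmr1* KO, which overlapped (log2 change 0.056, 95% interval -0.075 to 0.19, adjusted p = 0.703 by limma). The locus carries a second symbol, C130030K03Rik, whose reads are not separated from those of Grik2. Grik3, which encodes the low-affinity subunit GluK3, was the most variable member, with an FPKM of 10.4, 14.1 and 13.2 in WT, against 11.6, 13.4 and 14.0 in *Fmr1* KO. Replicate 1 was the lowest library in both genotypes, and the interval of the log2 change was correspondingly wide, from -0.21 to 0.33.

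Grik4 and Grik5 encode the high-affinity subunits. Grik4 measured 14.3, 13.6 and 14.1 FPKM in WT, against 14.8, 13.9 and 15.3 in *Fmr1* KO (log2 change 0.064, 95% interval -0.068 to 0.20). Grik5 measured 105, 96.3 and 98.9 FPKM in WT, against 96.8, 104 and 104 in *Fmr1* KO (log2 change 0.026, 95% interval -0.094 to 0.15). Both genes overlapped between the genotypes, with adjusted p of 0.656 and 0.870 in limma. For Gria1 to Gria4 and Grik2, Grik4 and Grik5 the upper bounds of the intervals correspond to rises of at most 14.6%, while that of Grik3 corresponds to 25.3%.

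The log2 change was above 0 in 9 of 9 members, with a median of 0.056, against 51.7% of all loci tested and a median of 0.0050. Centring each library on its median moved log2 changes by 0.0038 and kept all 9 above 0. Without WT replicate 1 the change fell to -8.56e-05 for Gria1, -0.016 for Gria3 and -0.074 for Grik3, and without WT replicate 2 it was -0.0017 for Grik5, so the shared sign depends on single WT libraries. Among members that kept their sign, the change of Gria2 ran from 0.019 without *Fmr1* KO replicate 1 to 0.061 without WT replicate 1, and that of Grik2 was 0.019 without *Fmr1* KO replicate 1. Without *Fmr1* KO replicate 3 it was 0.032 for Gria4 and 0.033 for Grik4, and without *Fmr1* KO replicate 2 it was 0.10 for Grik4. The median size of the change was 0.056 in the members and 0.085 over all loci.

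The make-up of each family was compared as the share of each subunit in the family's summed FPKM. A share does not depend on how a library was scaled, but it does depend on the transcript lengths behind the FPKM. Gria2 made up 49.8 ± 1.82% of the AMPA sum in WT and 49.8 ± 0.795% of that in *Fmr1* KO (SD, n = 3), and Gria1 made up 32.4 ± 1.35% and 32.4 ± 0.749%. Gria3 held 11.2 ± 0.421% and 11.1 ± 0.279%, and Gria4 6.55 ± 0.142% and 6.69 ± 0.328%. No AMPA share differed by more than the spread between replicates, with exact permutation p of 0.5 to 1. The ratio of Gria1 to Gria2 was 0.595, 0.691 and 0.667 in WT, against 0.630, 0.645 and 0.680 in *Fmr1* KO.

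In the kainate family Grik5 alone made up 66.02 ± 1.97% of the sum in WT and 65.0 ± 0.867% of that in *Fmr1* KO (SD, n = 3), and together with Grik4 it held 73.8 to 77.6% over all libraries. Grik1 held the least, with 4.32, 4.67 and 4.57% in WT, against 5.45, 5.42 and 5.11% in *Fmr1* KO. The *Fmr1* KO shares of Grik1 lay above the WT shares by 0.810 percentage points (exact permutation p = 0.1, and 0.5 after Benjamini-Hochberg adjustment over the 5 kainate shares). The shares of the other 4 kainate genes overlapped between the genotypes, with exact p of 0.7 to 1.

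**Figure D3:**
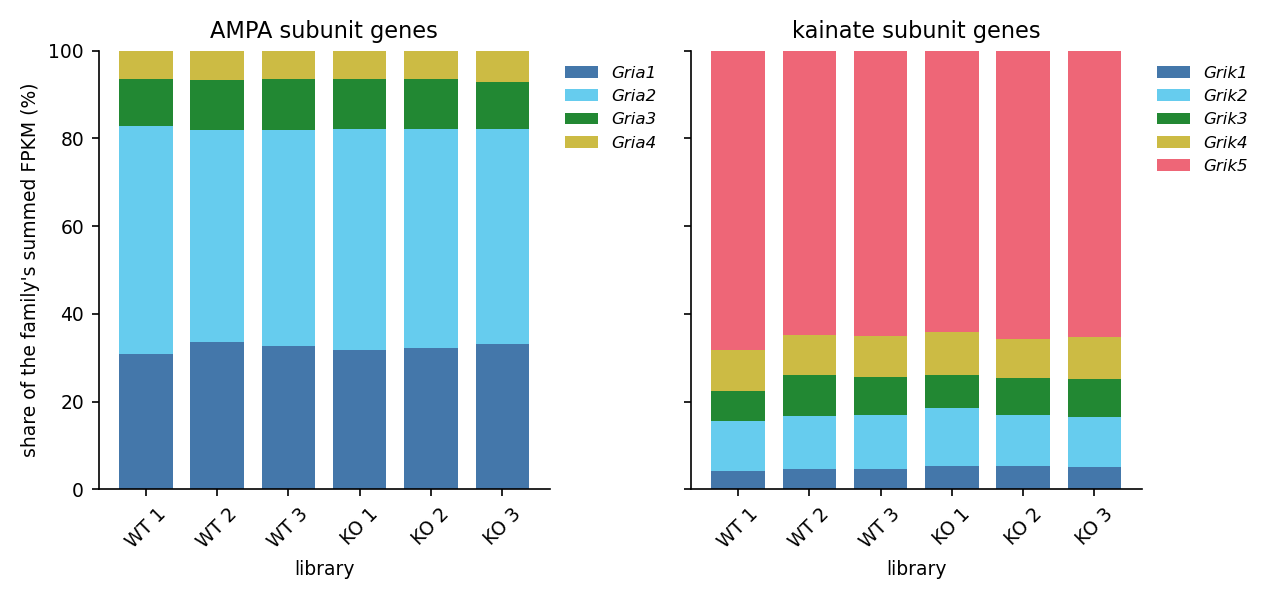
Share of each subunit gene in the summed FPKM of its family, in percent, as stacked bars for the 3 WT and 3 Fmr1 KO libraries, with the AMPA genes on the left and the kainate genes on the right. Gria2 takes 48.5 to 51.9% of the AMPA sum and Grik5 takes 64.1 to 68.3% of the kainate sum in every library.

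The AMPA sum was 300, 305 and 300.02 FPKM in WT and 313, 308 and 307 in *Fmr1* KO. The *Fmr1* KO libraries thus lay above WT by a log2 difference of 0.037 (exact permutation p = 0.1), as they did in 10.8% of all loci tested. A sum, unlike a share, depends on how a library was scaled, and this one was not examined with libraries left out. The kainate sum was 154, 149 and 152 in WT, against 151, 159 and 160.004 in *Fmr1* KO, which overlapped (exact permutation p = 0.3). AMPA over kainate sums gave a ratio of 1.99 ± 0.0535 for WT and 1.98 ± 0.0795 for *Fmr1* KO (SD, n = 3; exact permutation p = 0.7).

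Of the genes whose products assemble, move or edit these receptors, 41 were listed, 37 were tested, and 1, Nptx2, passed an adjusted p of 0.05. An unadjusted p below 0.05 was reached by 3 genes with *Fmr1* KO higher and by 8 with it lower, which is 8.11% and 21.6% of those tested, beside the 6.99% and 7.77% given above for all loci. The libraries did not overlap in 5 higher and 6 lower genes of the 37, beside 10.8% and 10.3% of all loci tested. The median log2 change of the 37 was -0.0017. The lists were chosen with earlier results of these data known.

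The AMPA auxiliary subunits and assembly factors set the surface number and gating of the receptor. Of 19 listed, 15 were tested, and none was called after adjustment; unadjusted, 1 passed with *Fmr1* KO higher and 3 with it lower. Cacng5, which encodes the TARP gamma-5, measured 5.59, 6.48 and 5.93 FPKM in WT, against 4.62, 3.97 and 4.61 in *Fmr1* KO (log2 change -0.44, standard error 0.092, adjusted p = 0.0925 by limma). Its groups did not overlap. Cacng3 (TARP gamma-3) measured 23.5, 21.4 and 16.2 FPKM in WT, against 17.1, 13.6 and 14.9 in *Fmr1* KO (log2 change -0.41, adjusted p = 0.230 by limma), and WT replicate 3 lay within the *Fmr1* KO range. Cacng4 (TARP gamma-4) measured 26.2, 25.5 and 25.01 FPKM in WT, against 29.5, 28.3 and 32.5 in *Fmr1* KO (log2 change 0.23, adjusted p = 0.156 by limma), with no overlap. By its Cuffdiff comparison the paper lists Cacng3, Cacng4 and Cacng5 as differentially expressed, in the same directions.

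Cacng2, the gene of stargazin, overlapped between the groups at 22.7, 20.5 and 21.8 in WT, against 24.1, 23.3 and 22.3 in *Fmr1* KO, and Cnih2, a cornichon that slows the closing of hippocampal AMPA receptors, was the highest gene of the list at 207 to 246 in WT and 224 to 244 in *Fmr1* KO; both were named after their values were seen. Shisa8 was below the FPKM minimum. Cacng7, Cacng8 and Prrt1 were listed at 0 in all 6 libraries. Each of these 3 symbols has more than 1 locus in the table, on a chromosome and on a scaffold outside the chromosomes, so a listed 0 does not show that the transcript is absent.

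**Figure D4:**
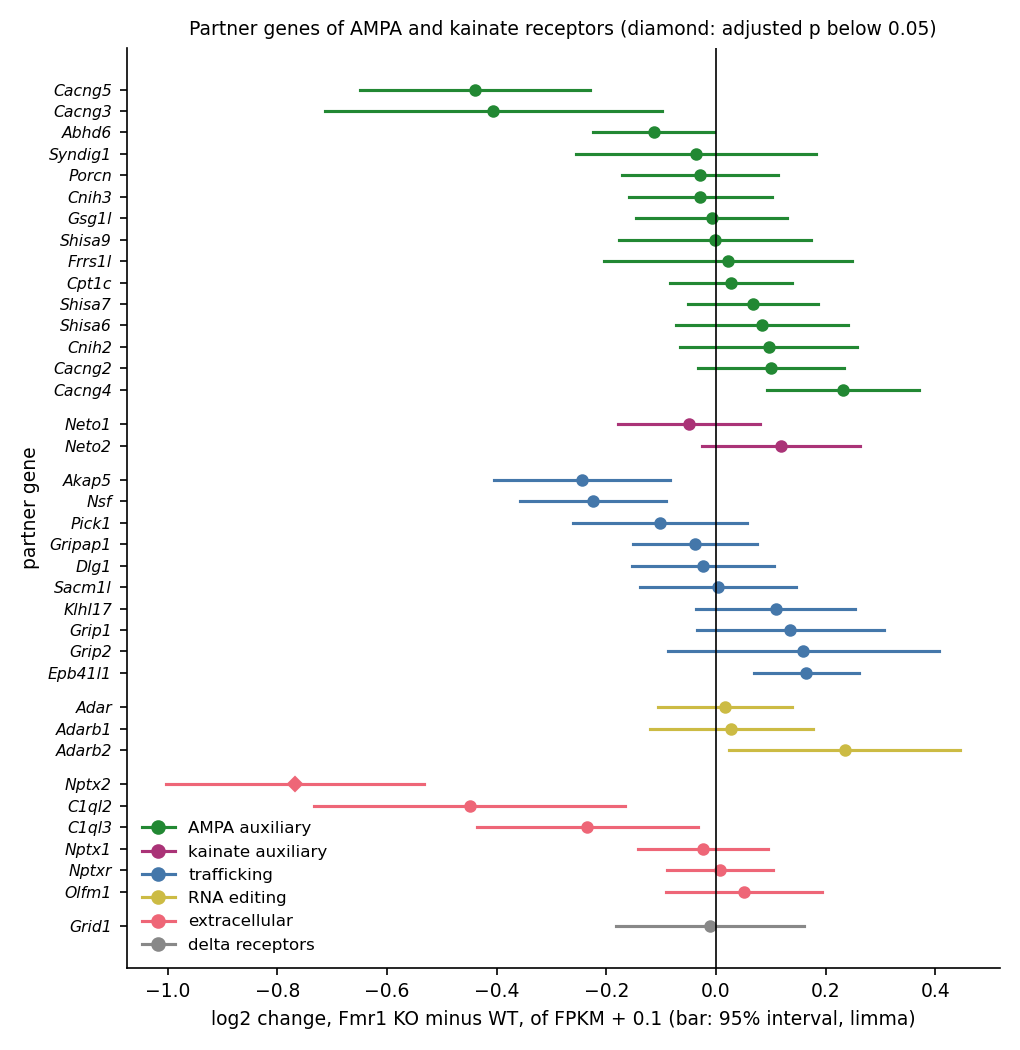
Log2 change (Fmr1 KO minus WT, on the log2(FPKM + 0.1) scale) of the 37 tested partner genes in 6 groups, with 95% limma intervals; a diamond marks an adjusted p below 0.05. Nptx2, at -0.77, is the only diamond, and Cacng5, Cacng3 and C1ql2 follow between -0.45 and -0.41.

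The products of Neto1 and Neto2 are the auxiliary subunits of kainate receptors, and neither gene passed the test. Neto1 measured 28.9, 32.7 and 30.8 FPKM in WT, against 30.2, 29.3 and 29.7 in *Fmr1* KO (log2 change -0.049). Neto2 had 11.9, 12.7 and 13.0 against 13.9, 14.1 and 12.9 (log2 change 0.12). Both overlapped between the genotypes.

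Among the 10 C-tail and trafficking partners, none was called after adjustment; unadjusted, 1 passed with *Fmr1* KO higher and 2 with it lower. Nsf, the ATPase that binds GluA2 and maintains it at the surface, measured 182, 192 and 169 FPKM in WT, against 162, 149 and 154 in *Fmr1* KO (log2 change -0.22, standard error 0.058, adjusted p = 0.153 by limma). Akap5, the anchor of kinases and calcineurin at GluA1, measured 11.5, 13.2 and 12.8 FPKM in WT, against 10.9, 10.1 and 10.6 in *Fmr1* KO (log2 change -0.24, adjusted p = 0.185 by limma). Epb41l1, whose product 4.1N links GluA1 to actin, measured 87.8, 91.6 and 89.6 FPKM in WT, against 99.1, 100.04 and 102 in *Fmr1* KO (log2 change 0.16, adjusted p = 0.149 by limma). The groups did not overlap in these 3 genes.

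Of the RNA editing enzymes, Adarb1, whose product ADAR2 edits the Q/R codon of Gria2 shown above, measured 14.0, 15.7 and 15.2 FPKM in WT, against 14.8, 16.2 and 14.9 in *Fmr1* KO, with a log2 change of 0.028 (95% interval -0.12 to 0.18). Adar was likewise intermixed (log2 change 0.017). Adarb2, a relative without known editing activity, measured 4.74, 5.75 and 5.85 FPKM in WT, against 6.17, 6.53 and 6.49 in *Fmr1* KO, which did not overlap (log2 change 0.23, and 0.14 without WT replicate 1, adjusted p = 0.293 by limma on all libraries). The extent of editing cannot be read from FPKM.

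The 6 extracellular organisers held the one called partner. Nptx2 encodes neuronal pentraxin 2, a secreted protein that clusters AMPA receptors and whose transcript is induced by neuronal activity, and it fell in *Fmr1* KO. Its FPKM was 5.87, 6.84 and 5.86 in WT, against 3.84, 3.78 and 3.17 in *Fmr1* KO, with every *Fmr1* KO library below every WT library. The log2 change was -0.77 (standard error 0.10, 95% interval -1.003 to -0.53, adjusted p = 0.0306 by limma with Benjamini-Hochberg adjustment). The call was lost without an FPKM minimum (adjusted p = 0.133), without the mean-variance trend (0.0600) and without any single library (0.0537 to 0.101).

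C1ql2 and C1ql3 encode complement-like proteins that hold kainate receptors at mossy fibre synapses. C1ql2 measured 6.73, 6.07 and 4.81 FPKM in WT, against 4.31, 3.89 and 4.52 in *Fmr1* KO (log2 change -0.45, adjusted p = 0.170 by limma). C1ql3 had 67.9, 62.3 and 58.0 against 59.7, 53.0 and 47.5 (log2 change -0.23, and -0.15 without *Fmr1* KO replicate 3, adjusted p = 0.274 by limma on all libraries). The groups were separated for C1ql2 and overlapped for C1ql3. Nptx1, Nptxr and Olfm1 had log2 changes between -0.025 and 0.051. Grid1, which encodes a delta receptor, a relative that binds organisers rather than passing current, had a log2 change of -0.011.

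The loci whose profile over the 6 libraries was most like that of the highest AMPA and the highest kainate member were sought by the mean absolute difference of centred log2 values. For Gria2 they included Smarcd1 and Acbd6, at distances of 0.0092 and 0.011, where the median of 13194 loci was 0.089. For Grik5 they were Zfp943, Dcaf15 and Eif2d, at 0.013 to 0.015. Since both members varied little, these are loci that varied as little over the same 6 libraries.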

How the data were processed

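RNA-seq of total RNA gave 3 WT and 3 *Fmr1* KO libraries, grouped by sample title. Per the labels and the paper, the authors clipped and trimmed reads, used TopHat2 to map them to GRCm38, Cufflinks to assemble genes and Cuffdiff to compare the genotypes; the sources used here do not state versions, annotation or library scaling. The deposited values are FPKM per library. The table also holds group means, fold changes, p-values and q-values of the authors' comparison, which were not used. Its start coordinates count from 0 and are given here from 1. Each of the 47086 loci entered once.

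limma 3.58.1 (R 4.3.3) was run on log2(FPKM + 0.1) for loci whose mean FPKM reached 1 in WT or *Fmr1* KO, with genotype alone in the model and the mean-variance trend on, two-sided, and p-values were adjusted by Benjamini-Hochberg; the code was tested on simulated data. Shares and sums were compared by two-sided exact permutation. Depth is unknown and counting intervals were left out. Members and lists were chosen with earlier results of these data known. Named were all members, *Fmr1*, called partners, the 3 largest changes per list and the 3 nearest profiles of 2 members; a few items under this rule are not reported here, and the partner counts leave them out. Alternatives were pseudocounts of 1 and 0.01, FPKM minimums of 0 and 5, median centring, no trend, a replicate block, summed loci and each library left out. Coding sequences came from GENCODE M21 (GRCm38), whose principal transcripts were translated with Biopython 1.88 to find the Q/R codon. Chromosome names came from the RefSeq table of GRCm38.p6.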

Additional observations from a re-analysis of the deposited data

How the results depend on the processing

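No member was called at an adjusted p below 0.05, and 1 was below an unadjusted 0.05, under every alternative tried. The count of called partners was 1, and 0 without an FPKM minimum, 0 without the mean-variance trend and 0 to 0 with each library left out; partners lower at an unadjusted p below 0.05 numbered 8, and 5 to 7 with each library left out. The cause was not tested. Neighbouring levels called numbered 6, and 0 to 0 with each library left out, since 5 libraries cannot reach 0.05.

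With each library left out, several differences changed sign. They were near 0 apart from the share of Grik5, whose difference was -1.01 percentage points with all libraries. The log2 change ran from -8.56e-05 to 0.072 for Gria1, -0.016 to 0.045 for Gria3, -0.074 to 0.15 for Grik3, -0.0017 to 0.061 for Grik5, -0.015 to 0.050 for Adar, -0.018 to 0.064 for Adarb1 and -0.083 to 0.055 for Grid1. The log2 level of Grik5 over Gria1 ran from -0.0041 to 0.050. Differences of share, in percentage points, ran from -0.722 to 0.581 for Gria1, -0.722 to 0.993 for Gria2, -0.371 to 0.0393 for Gria3, -0.0437 to 0.242 for Gria4, -0.438 to 0.404 for Grik2, -0.796 to 0.582 for Grik3, -0.0727 to 0.412 for Grik4 and -1.67 to 0.127 for Grik5. The log2 AMPA to kainate ratio ran from -0.044 to 0.011. Of log2 changes that kept their sign, Gria2 ran from 0.019 to 0.061, Gria4 from 0.032 to 0.094, Grik2 from 0.019 to 0.086, Grik4 from 0.033 to 0.10, *Fmr1* from 0.051 to 0.21, Adarb2 from 0.14 to 0.29 and C1ql3 from -0.32 to -0.15. The share of Grik1 differed by 0.710 to 0.916 points.

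The labels do not say whether replicate numbers pair the libraries. The correlation of deviations was 0.243, 0.0577 and 0.0801 between same-numbered libraries, and -0.152 to 0.0781 between libraries of unlike number. It was highest for replicate 1, and a shared origin of same-numbered libraries was not tested. With the replicate number as a block, 0 members and 1 partner were called, as without it, and the adjusted p of Grik1 was 0.0903. Summing loci of a symbol changed no value, since each member has 1 locus. The depth is unknown, and the spread of 3 libraries limits what can be seen: a change of Grik3 of up to 25.3% lies within its interval.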

Other observations

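Cacng7, Cacng8 and Prrt1 belong to a larger set of symbols listed at 0. Of 1685 symbols with both a chromosome locus and a scaffold locus, 1100 (65.3%) were at 0 in all 6 libraries. Of 43549 symbols with a chromosome locus alone, 16630 (38.2%) were. This was looked at after those 3 genes had been seen at 0.

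Map2, a dendritic microtubule protein, measured 297, 300 and 309 FPKM in WT, against 365, 354 and 368 in *Fmr1* KO, and the limma adjusted p was 0.0593. Camk2a, the kinase that phosphorylates GluA1, measured 480.3, 508 and 484 FPKM in WT, against 513, 537 and 592 in *Fmr1* KO, with an adjusted p of 0.286. Both were separated in the same direction as Grik1, and Slc17a7, the vesicular glutamate transporter, was separated in the other, at 285, 290.2 and 285 in WT, against 279.9, 269 and 279 in *Fmr1* KO (limma adjusted p = 0.575). These genes come from the neuronal marker lists and were named after their values were seen.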
